A study of Mus musculus with 12 samples.

Results

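Tnnt2 encodes cardiac troponin T, and its level was followed here in subcutaneous mouse angiosarcoma tumors given a MEK inhibitor, a VEGF receptor inhibitor or both. It is 1 gene of 54232 in the count table, and it was found by its name there. It was selected on its measured CPM (counts scaled to library size) across the 4 treatments, which were low with trametinib and with both drugs while other muscle genes went with single tumors, so its levels and fold changes are given as a description, with no test. The tumors grew from SVR cells, a transformed endothelial cell line of C57BL/6 origin, in nude mice. There were 4 groups of 3 tumors, and doses were given daily by mouth. Control mice received the vehicle alone (cremaphor, PEG 400 and tween). Trametinib-treated mice received 1 mg/kg of trametinib, which inhibits MEK, the kinase above ERK. Cediranib-treated mice received 3 mg/kg of cediranib, which inhibits VEGF receptors. Combination mice received both drugs at those doses. By the labels, dosing began 3 to 7 days after injection and ended when a tumor ulcerated or passed 1 cm. The study's methods also describe an experiment in which all tumors were taken at a single time, and which of them gave the sequenced tumors is not stated, so time on treatment is unknown and may differ between tumors. The RNA came from whole tumor tissue, and both the tumor cells and the host cells in it are of mouse origin. A lower level can therefore mean fewer cells with the transcript or less of it per cell, and these cannot be told apart in bulk RNA. No label says how the 3 tumors of a group relate to each other, and p-values measure only the spread between these tumors, which may be partly technical.

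Troponin is the calcium switch of striated muscle. It has 3 kinds of subunit: troponin C binds calcium, troponin I holds back the interaction of actin and myosin, and troponin T ties the complex to tropomyosin on the thin filament. Troponin T and troponin I each have separate genes for cardiac, slow skeletal and fast skeletal muscle, while heart and slow skeletal muscle share 1 troponin C gene. Tnnt2 is the troponin T gene of the heart, and it is also transcribed in embryonic skeletal muscle. Its transcript is not a marker of endothelial cells.

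In the deposited table Tnnt2 (ENSMUSG00000026414) lies on the forward strand of GRCm38 at chr1:135836354-135852260. GENCODE M21 gives it 15 transcripts, 12 of them protein coding and 3 with a retained intron, and the longest coding transcript has 16 exons. No other GENCODE M21 gene overlaps it on either strand. The table's gene length of 7752 bases equals the union of all its exons, retained introns included, whereas the longest coding transcript has 1200 bases.

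The first RefSeq promoter of Tnnt2 is shown because it is the sequence next to the start of the gene whose RNA level differed between the groups. The run covers the 250 bases before the RefSeq start (GRCm38.p6, chr1:135836084-135836333, forward strand). Capitals mark matches to 3 motifs, searched on both strands. Of the forms of the E-box only CAGCTG was searched, so other forms are not marked. The motif of GATA factors was searched as AGATAA and as TGATAA, and its match here is on the reverse strand. The MCAT element, which TEAD factors bind in muscle promoters, has the letters CATTCC.

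Tnnt2 promoter, start 1: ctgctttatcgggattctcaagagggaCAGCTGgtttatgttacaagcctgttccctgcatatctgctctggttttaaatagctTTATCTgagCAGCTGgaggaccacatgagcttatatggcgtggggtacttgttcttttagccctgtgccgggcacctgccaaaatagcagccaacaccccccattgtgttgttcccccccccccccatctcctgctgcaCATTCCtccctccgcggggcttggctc

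The MCAT match lies 27 to 22 bases before the start. The CAGCTG matches lie 223 to 218 and 157 to 152 bases before it, and the GATA match 166 to 161 bases before it. These motifs are common. Among 32851 RefSeq windows of the same length, 12.6% held the MCAT letters on either strand, 13% held CAGCTG and 16.6% held one of the GATA forms. The AP-1 letters TGAGTCA and TGACTCA (in 4.46% of windows), the CArG box (1.47%) and the MEF2 motif (2.92%) were not in this window. Nor was CCGGAA (12%), a longer form of the ETS core, and shorter forms such as GGAA were not searched. The window before the second RefSeq start of Tnnt2 held none of the 7 motifs in the forms searched. The motifs were chosen with the sequence known, and a match of letters is not a measured site.

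The 12 libraries held 9478865 to 11666094 counts, and 12897 genes had enough counts to be tested. A count of 3, the limit that a count of 0 allows, was worth 0.251 to 0.349 CPM. A gene was called when edgeR's quasi-likelihood test gave a Benjamini-Hochberg false discovery rate (FDR) under 0.05 and the fold change was at least 1.5 on the log2 scale. Control tumor 2 and trametinib tumor 2 stood apart from the rest by their skeletal muscle RNA. The summed level of 25 skeletal muscle genes was 18860 CPM in the first and 26610 CPM in the second, against 28.7 to 2352 CPM in the other 10 tumors.

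Tnnt2 was present in every control tumor, at 151 CPM in tumor 1 (95% Poisson interval 144 to 159, for counting error only), 113 CPM in tumor 2 (106 to 119) and 163 CPM in tumor 3 (155 to 171). These levels rest on 1778, 1110 and 1609 counts. Per kb of table length they were higher than those of 78.7% to 84.2% of the genes tested. The highest control tumor was 1.45 times the lowest.

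With trametinib the level was 14.4 CPM in tumor 1 (12.3 to 16.9), 11.1 CPM in tumor 2 (8.95 to 13.5) and 8.37 CPM in tumor 3 (6.81 to 10.2), from 159, 95 and 100 counts. All 3 values lay far below all 3 control values, and the lowest control tumor was 7.79 times the highest trametinib tumor. In the order of levels per kb the gene moved from the upper part of the tested genes to between 30.1% and 38.6%.

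With cediranib the level was 149 CPM in tumor 1 (141 to 156), 66.4 CPM in tumor 2 (61.6 to 71.5) and 310 CPM in tumor 3 (299 to 320). Tumor 2 was below every control tumor, tumor 3 was above every control tumor and tumor 1 was among them. The spread was 4.66-fold between the lowest and the highest tumor, far beyond counting error.

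With both drugs the level was 3.23 CPM in tumor 1 (2.21 to 4.56), 1.91 CPM in tumor 2 (1.18 to 2.91) and 8.35 CPM in tumor 3 (6.72 to 10.3), from 32, 21 and 90 counts. All 3 values were under every control and every cediranib value. Tumor 3 was level with the lowest trametinib tumor, and their counting intervals overlapped. The highest combination tumor was 4.38 times the lowest.

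**Figure D1:**
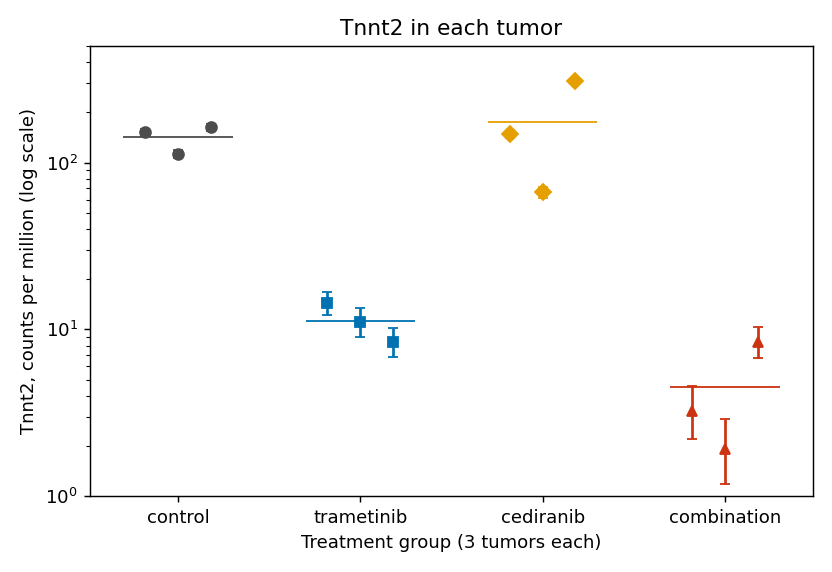
Tnnt2 level in each tumor (CPM, log axis) by treatment group, with 95% Poisson intervals for counting error and the mean of each group as a line. The control and cediranib tumors lie between 66.4 and 310 CPM, and the tumors given trametinib, alone or with cediranib, lie between 1.91 and 14.4 CPM.

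By group mean the order was cediranib at 175 ± 124 CPM (SD, n = 3), control at 142 ± 26.3, trametinib at 11.3 ± 3.04 and combination at 4.50 ± 3.41. Neighbours in this order did not all differ beyond their spread. Cediranib and control overlapped, and their fitted difference was 0.30 ± 0.49 (SE) on the log2 scale. Its sign turned to -0.41 without cediranib tumor 3. Trametinib and control differed by a fitted log2 fold change of -3.66 ± 0.56, which is 12.6-fold lower with trametinib. Only 90 of the 12897 genes tested had a lower fitted value.

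Combination and control differed by a log2 fold change of -4.98 ± 0.61, or 31.5-fold lower with both drugs. This was the 20th lowest value of the 12897. Without combination tumor 3 it was -5.80. Combination and trametinib differed by -1.32 ± 0.58, or 2.50-fold lower with both drugs, but the ranges all but touched, with a ratio of 1.002 between the lowest trametinib and the highest combination tumor. Leaving out single tumors moved this last difference from -2.14 (without combination tumor 3) to -0.93 (without combination tumor 2).

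For all genes, the share called in either direction was 2.4% with trametinib and 3.61% with the combination, each against control. Genes with all trametinib values under all control values made up 12.9% of those tested, and the corresponding share for the combination was 15.7%. For combination against trametinib these shares were 0.675% called and 11.8% with all combination values lower. For cediranib against control edgeR called 0 genes (0%), with 557 genes at an unadjusted p under 0.05 and 10 called by DESeq2.

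Within groups Tnnt2 was more variable than most genes. Its pooled within-group SD was 0.79 on the log2 scale, and 90.6% of tested genes had a smaller one, with a median of 0.30. The spread came mainly from the cediranib and combination groups, where the SD of log2 CPM was 1.11 and 1.03, against 0.28 in control and 0.39 in trametinib tumors.

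The other genes for troponin T did not share the pattern. Tnnt1, the slow skeletal troponin T, had 8 counts over all 12 libraries and was not tested. Tnnt3, the fast skeletal troponin T, was at 5.28, 179 and 0 CPM in control tumors 1 to 3 and at 2.27, 254 and 31.1 CPM in trametinib tumors 1 to 3. It was at 0.189 to 2.20 CPM in cediranib tumors and at 0.272 to 6.16 CPM in combination tumors. The high values of Tnnt3 were those of control tumor 2 and trametinib tumor 2, whose Tnnt2 levels were in the ordinary range of their groups. Its fold change was 0.64 ± 1.57 with trametinib (edgeR FDR 0.875) and -4.44 ± 1.92 with the combination (FDR 0.16) on the log2 scale, and neither was called. The second turned to 0.04 without control tumor 2.

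Fast troponin I (Tnni2) and fast troponin C (Tnnc2) had the same tumors on top. Tnni2 was at 108 CPM in control tumor 2 and 138 CPM in trametinib tumor 2, and at most 16.0 CPM in the other 10 tumors. Tnnc2 was at 111 and 155 CPM in these tumors and at most 19.5 CPM elsewhere. With trametinib their log2 fold changes were 0.46 ± 1.46 (FDR 0.905) and 0.65 ± 1.54 (FDR 0.869). With the combination they were -4.07 ± 1.77 (FDR 0.161) and -3.49 ± 1.78 (FDR 0.232), and these turned to 0.04 and 1.93 without control tumor 2. Without trametinib tumor 2 the trametinib changes turned to -2.10 (Tnni2), -1.80 (Tnnc2) and -1.87 (Tnnt3).

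Slow troponin I (Tnni1), a neighbour of Tnnt2 at -25.4 kb, was at 2.98, 6.59 and 6.57 CPM in control, 0.545, 3.72 and 3.35 CPM in trametinib, 1.10, 0.851 and 3.25 CPM in cediranib and 0, 0.908 and 1.21 CPM in combination tumors. All combination values were under all control values. The log2 fold change was -1.09 ± 0.77 with trametinib (FDR 0.48) and -2.89 ± 0.86 with the combination (FDR 0.0538, from 165 counts in control and 23 in combination tumors), so that the gene missed the threshold. DESeq2 called it (adjusted p 0.00705), as did the edgeR fit on the control and combination groups alone (FDR 0.0473).

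Cardiac troponin C (Tnnc1), which slow skeletal muscle shares with the heart, was at 1.76 to 7.22 CPM in all 12 tumors, with a log2 fold change of 0.02 ± 0.45 with trametinib (FDR 0.986) and 0.07 ± 0.45 with the combination (FDR 0.937). The sign of both changed under other settings. Cardiac troponin I (Tnni3) was at 0.303 to 3.45 CPM, with changes of 0.25 ± 0.81 (FDR 0.908) and 0.76 ± 0.79 (FDR 0.582), whose signs also changed under other settings. Neither partner of Tnnt2 in the cardiac complex was thus called in either comparison. In the fit used throughout, edgeR called 0 of the 6 tested subunits other than Tnnt2 in any comparison. In trametinib against control 0 of them had an unadjusted p under 0.05 and DESeq2 called 0. In combination against control 3 had such a p and DESeq2 called 1, Tnni1.

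**Figure D2:**
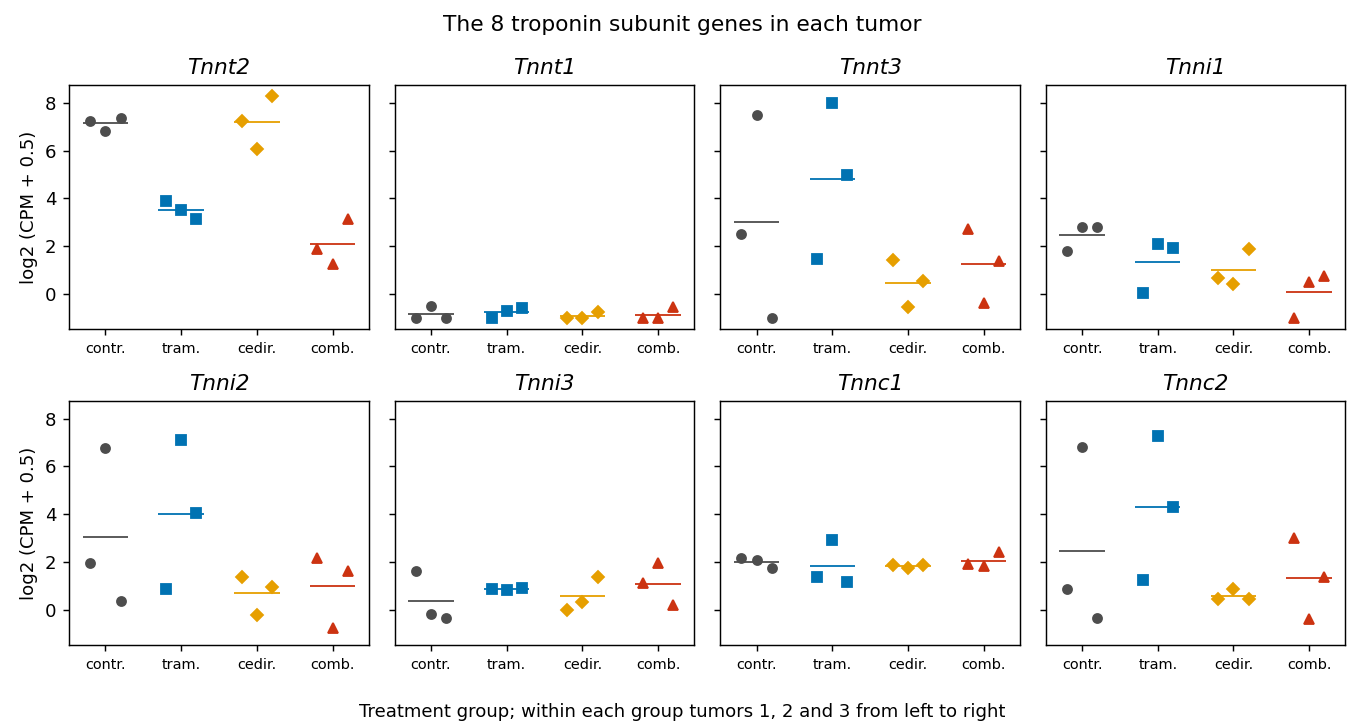
Levels of the 8 troponin subunit genes in each tumor, as log2 of CPM plus 0.5, by treatment group, with group means as lines. Tnnt2 is low in all 6 tumors given trametinib, while Tnnt3, Tnni2 and Tnnc2 are highest in control tumor 2 and trametinib tumor 2.

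Between subunits, levels were compared per kb, and the order in control tumors depended on the length used. Per kb of the table's length the group mean level was 18.3 CPM for Tnnt2, under 46.8 for Tnnc2, 38.7 for Tnnt3 and 25.1 for Tnni2. Per kb of the longest GENCODE M21 coding transcript it was 118 CPM for Tnnt2, above 56.8 for Tnnt3, 53.5 for Tnnc2 and 48.9 for Tnni2. On that scale Tnnc1 was at 4.94, Tnni1 at 4.68, Tnni3 at 1.22 and Tnnt1 at 0.0638 CPM per kb. The control means of the fast subunits are set by control tumor 2. In the cediranib group, where no tumor had much skeletal muscle RNA, Tnnt2 was at 146 CPM per kb of coding transcript and the other 7 subunits were at 0.0301 to 4.25.

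Other cardiac genes mostly had few or no counts. Of a list of 23 genes of cardiac muscle without Tnnt2, 8 were tested. Myl2, Myl7, Nppb and Pln, which encode ventricular and atrial myosin light chains, a natriuretic peptide and phospholamban, had 0 counts in all 12 libraries. Nppa, Sln and Tnni3k had 1 count each. The cardiac myosin heavy chains were at 0 to 2.72 CPM (Myh6) and at 0 to 4.27 CPM (Myh7). Listed counts near 0 do not show that a transcript was absent from this exome capture. The study chose this method because RNA degradation in its tumors was relatively high, and RNA quality per tumor was not used here. Tcap and Mb (myoglobin), which skeletal muscle also makes in abundance, had 4 counts each over the 12 libraries, and both were at 0 CPM in control tumor 2, where Myh4 was at 11300 CPM.

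With trametinib edgeR called 0 of these 8 genes, with 1 at an unadjusted p under 0.05 and 0 called by DESeq2. The median log2 fold change of the 8 was 1.24, against 0.01 for all genes tested. With the combination 1 of 8 was called lower, beside 1.71% of all genes. DESeq2 called 2 of the 8, Ankrd1 lower and Myh7 higher. Myh7 was at 0 to 0.203 CPM in control and 0.0928 to 4.27 CPM in combination tumors, with a change of 3.89 ± 1.37 in edgeR (FDR 0.0925). The gene that edgeR called was Ankrd1, a nuclear and sarcomeric repeat protein that many cell types also make. It was at 79.8 to 135 CPM in control and 27.2 to 35.0 CPM in combination tumors (log2 fold change -1.81 ± 0.24, FDR 0.00155), and at 57.4 to 71.3 CPM with trametinib (-0.76 ± 0.23, FDR 0.0766). Ttn, which encodes titin and is present in all striated muscle, went with control tumor 2 (1853 CPM) and trametinib tumor 2 (3753 CPM).

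On the thin filament itself, 14 of 18 genes for tropomyosins, actins and their caps were tested. edgeR called 0 of the 14 with trametinib and 0 with the combination, with 2 and 3 at an unadjusted p under 0.05, and DESeq2 called 0 in both. Tpm1, the partner that troponin T binds and one that many cell types make, was at 957 to 3020 CPM in control, 879 to 4500 CPM in trametinib and 436 to 722 CPM in combination tumors. Its log2 fold change was 0.20 ± 0.55 with trametinib (FDR 0.885) and -1.76 ± 0.57 with the combination (FDR 0.0709). Tpm3 and Tpm4, tropomyosin genes that most cells transcribe, changed by -0.48 ± 0.14 (FDR 0.06) and 0.25 ± 0.15 (FDR 0.377) with trametinib. Actc1, the cardiac actin, was highest in trametinib tumor 2 at 17.1 CPM and control tumor 2 at 5.78 CPM.

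The 22 tested skeletal muscle genes held no call with trametinib or with the combination. With trametinib 0 of the 22 had an unadjusted p under 0.05 and DESeq2 called 0, and their median log2 fold change was 0.62. With the combination 13 had such a p, DESeq2 called 7 and the median was -3.95. Myh4, a fast myosin heavy chain, was at 8.60, 11300 and 2.02 CPM in control tumors and at 132, 12510 and 694 CPM in trametinib tumors. The genes of developing and regenerating muscle, in which Tnnt2 is known to be transcribed, also held 0 calls among 6 tested in both comparisons. With trametinib 3 of them had an unadjusted p under 0.05, with the combination 0 did, and DESeq2 called 0 in both. Their median log2 fold changes were 1.86 and -0.26. Myh3 and Myh8, the embryonic and perinatal myosins, were highest in trametinib tumor 2, at 26.9 and 115 CPM.

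The skeletal muscle score averages log2 CPM over the tested members of that list, and its relation to Tnnt2 was not the same in every group. The score was 2.08, 6.67 and -0.70 in control tumors 1 to 3 and 1.36, 7.46 and 4.44 in trametinib tumors 1 to 3. In both of these groups the highest Tnnt2 level stood beside the lowest score. In cediranib tumors 1 to 3 the score was 1.06, -0.34 and 1.41, and Tnnt2 had the same order as the score. In combination tumors 1 to 3 it was 2.39, -0.15 and 1.47, and tumor 2 was lowest in both, while the highest Tnnt2 level and the highest score were in different tumors. Without control tumor 2 and trametinib tumor 2 the Tnnt2 log2 fold change was -3.79 with trametinib and -5.12 with the combination. The choice of Tnnt2 used its independence of single muscle-rich tumors, so these values describe the gene and test nothing about the part of muscle RNA.

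**Figure D3:**
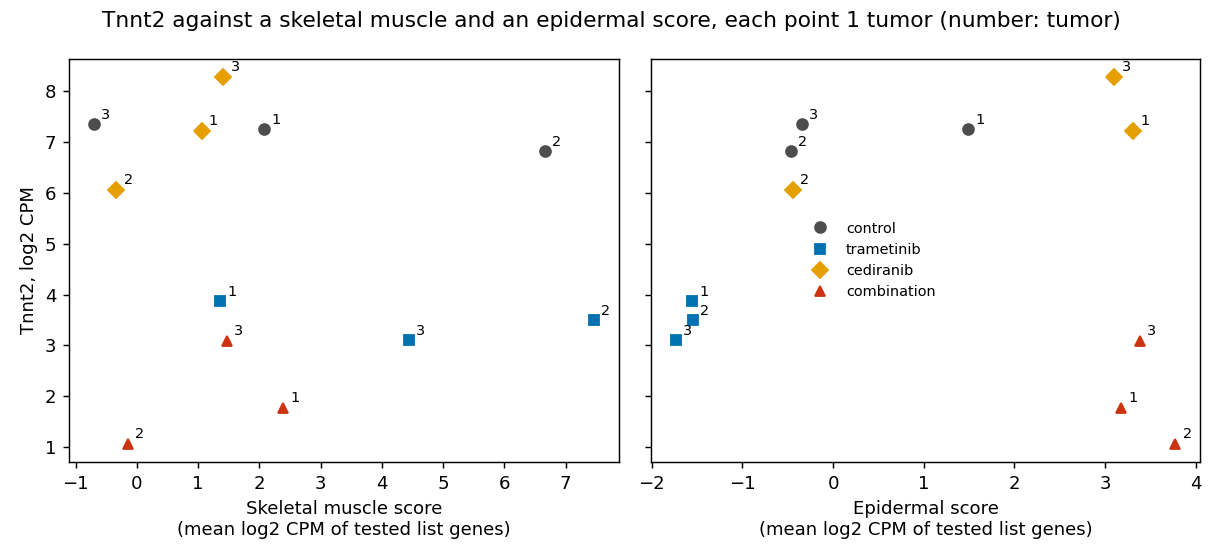
Tnnt2 (log2 CPM) against the skeletal muscle score (left) and the epidermal score (right) of each tumor, both scores being mean log2 CPM over the tested genes of a list. Tumors given trametinib, with muscle scores from -0.15 to 7.46, all lie under the others, whose muscle scores run from -0.70 to 6.67. The epidermal score separates the trametinib from the combination tumors.

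Smooth muscle genes were tested at 8 of 14. Tagln (transgelin) was called lower with the combination, at 1.92 to 2.88 CPM against 2.98 to 26.2 CPM in control (-2.42 ± 0.68, FDR 0.0424), 1 of 8 beside 1.71% of all genes, and no gene of the list was called with trametinib (2 at an unadjusted p under 0.05, 0 by DESeq2). Acta2, the smooth muscle actin, was at 41.4, 132 and 379 CPM in control and 91.0, 949 and 97.7 CPM in trametinib tumors (1.04 ± 0.95, FDR 0.608).

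Among 13 tested transcription factors of heart and muscle, Tbx2, a T-box repressor, was the one called with trametinib. It was higher, at 15.7 to 31.8 CPM against 2.81 to 3.64 CPM in control (2.72 ± 0.30, FDR 0.000394), beside 0.977% of all genes called higher, and was called lower with the combination than with trametinib (-1.99 ± 0.29, FDR 0.0196, beside 0.14% of all genes called lower). Tead4, a factor that binds the MCAT letters, was at 13.5 to 18.2 CPM in control, 5.86 to 6.36 CPM in trametinib and 6.90 to 8.18 CPM in combination tumors. Its change of -1.41 ± 0.24 with trametinib had an FDR of 0.00498 but missed the size threshold, as did -1.10 ± 0.24 with the combination (FDR 0.0147). Tead1 was at 49.3 to 98.8 CPM in all 12 tumors and changed by 0.37 ± 0.17 with trametinib (FDR 0.262). Srf, the factor of the CArG box, changed by -0.21 ± 0.14 with trametinib (FDR 0.434) and by -0.65 ± 0.14 with the combination (FDR 0.0128). Mef2a, Mef2c and Mef2d were at 62.6 to 354 CPM in all 12 tumors and were not called. The cardiac factors Nkx2-5, Tbx5, Tbx20 and Hand2 had 3 to 15 counts over the 12 libraries, Gata4 had 75, and none of these was tested. With the combination edgeR called 0 of the 13, with 7 at an unadjusted p under 0.05 and 0 called by DESeq2.

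ERK, the kinase below MEK, drives a known set of output genes, and these are set beside Tnnt2. With trametinib 10 of 17 tested genes of MAPK output were called lower and 0 higher, beside 1.43% of all genes called lower. With the combination 9 of 17 were called lower, beside 1.71%. Egr1, an immediate early factor, was at 86.2 to 88.1 CPM in control, 3.18 to 5.11 CPM in trametinib and 7.17 to 10.6 CPM in combination tumors (-4.49 ± 0.23, FDR 2.15e-06, and -3.23 ± 0.21, FDR 3.9e-05). Dusp6, an ERK phosphatase, was at 39.0 to 47.7, 1.98 to 4.54 and 10.2 to 13.9 CPM in these groups.

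Tnnt2 and these genes stood in a different order in the 2 groups given trametinib. Dusp6 was called higher with the combination than with trametinib alone (1.79 ± 0.24, FDR 0.0196), and so was Etv5, an ETS factor (1.58 ± 0.27, FDR 0.0269), beside 0.535% of all genes called higher. The median log2 difference between these groups over the 17 genes was 0.92. The group mean of Tnnt2 was lower with the combination than with trametinib alone, though its ranges all but touched.

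Markers of other cells moved with the same groups. Of 11 tested endothelial genes 5 were called lower with trametinib, beside 1.43% of all genes, and 5 with the combination, beside 1.71%. The summed level of the 12 listed was 257 to 513 CPM in control, 114 to 175 CPM in trametinib, 160 to 400 CPM in cediranib and 81.9 to 146 CPM in combination tumors. Pecam1 was at 3.14 to 4.6, 0.466 to 1.18 and 0.272 to 0.909 CPM in control, trametinib and combination tumors (-2.38 ± 0.47, FDR 0.0111, and -2.93 ± 0.49, FDR 0.0059). Cdh5 was called lower in both comparisons as well, at 9.88 to 24.4 and 6.90 to 19.9 CPM against 45.3 to 120 CPM in control. Eng, another endothelial gene, was at 33.0 to 66.4 CPM in all tumors and was not called. SVR cells are themselves of endothelial origin, so these genes do not tell tumor from host. With the endothelial score as a covariate the Tnnt2 change was -4.08 with trametinib and -5.46 with the combination. That score was 3.37 to 4.53 in control, 2.16 to 2.68 in trametinib and 1.61 to 2.56 in combination tumors. It does not overlap between control tumors and either of the other groups, and its part in the difference of Tnnt2 was not tested.

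Epidermal genes separated the combination from the trametinib tumors. The summed level of the 14 listed was 21.1 to 61.2 CPM in control, 3.35 to 4.18 CPM in trametinib, 40.6 to 219 CPM in cediranib and 234 to 393 CPM in combination tumors. Of 11 tested, 4 were called higher with the combination than in control, among them Sfn (3.11 ± 0.60, FDR 0.00978) and Lor (2.84 ± 0.65, FDR 0.0199), beside 1.91% of all genes called higher. Ivl, 1 of 11, was called lower with trametinib, beside 1.43% of all genes. It had 0 counts in that group against 7.15 to 33.9 CPM in control. For combination against trametinib edgeR called 5 of the 11 higher, beside 0.535% of all genes, and DESeq2 called 11. With the epidermal score as a covariate the Tnnt2 change was -2.97 with trametinib, or 7.84-fold lower, and -6.22 with the combination, or 74.5-fold lower. The difference between cediranib and control turned to -0.58 in that fit and that between combination and trametinib became -3.25. The score does not overlap between trametinib and combination tumors, and its part in the difference of Tnnt2 was not tested.

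Of 5 tested erythroid genes, 4 hemoglobin genes were called lower with the combination, beside 1.71% of all genes. The summed level of the 6 listed was 74.0 to 1791 CPM in control, 54.1 to 90.3 CPM in trametinib, 54.0 to 570 CPM in cediranib and 15.1 to 16.1 CPM in combination tumors. Hbb-bs was at 6.36 to 8.99 CPM with the combination (-5.84 ± 1.32, FDR 0.0186). With trametinib edgeR called 0 of 5, with 5 at an unadjusted p under 0.05 and 4 called by DESeq2. Of fibroblast genes, Fbln1 was called higher in both comparisons (1.61 ± 0.41, FDR 0.0375, and 1.59 ± 0.41, FDR 0.0304), 1 of 9 tested beside 0.977% and 1.91% of all genes called higher. Pdgfrb was called lower with the combination (-1.67 ± 0.44, FDR 0.0351), 1 of 9 beside 1.71%. Of 10 macrophage genes, Cd68 was called lower with the combination (-1.59 ± 0.33, FDR 0.0127), beside the same 1.71%. Of 6 tested adipocyte genes, Plin4 was called higher with trametinib (3.56 ± 0.82, FDR 0.0251), beside 0.977%. The part of these cells in the level of Tnnt2 was not tested.

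The genes beside Tnnt2 on chromosome 1 were not called with it. Within 250 kb lie 10 protein coding genes, of which 7 were tested. edgeR called 0 of the 7 in either comparison with control. With trametinib 1 had an unadjusted p under 0.05 and DESeq2 called 1 (Pkp1), and with the combination 3 had such a p and DESeq2 called 1 (Tnni1). Nav1, at 260 to 537 CPM, Csrp1, at 76.5 to 158 CPM, and Tmem9, at 12.2 to 26.9 CPM, changed by -0.40 ± 0.19 (FDR 0.266), 0.08 ± 0.20 (FDR 0.883) and 0.18 ± 0.20 (FDR 0.697) with trametinib. Phlda3 changed by -0.45 ± 0.27 (FDR 0.382).

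Pkp1, a desmosomal plaque gene of epidermis whose nearest end is 19.1 kb beyond Tnnt2, had 0 counts in all trametinib tumors and was at 50.5 to 106 CPM in combination tumors, where Tnnt2 was lowest. Cacna1s, the calcium channel of skeletal muscle, went with control tumor 2 (36.1 CPM) and trametinib tumor 2 (53.0 CPM). Lad1, Igfn1 and Ascl5 were at 0 to 1.09 CPM and were not tested.

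**Figure D4:**
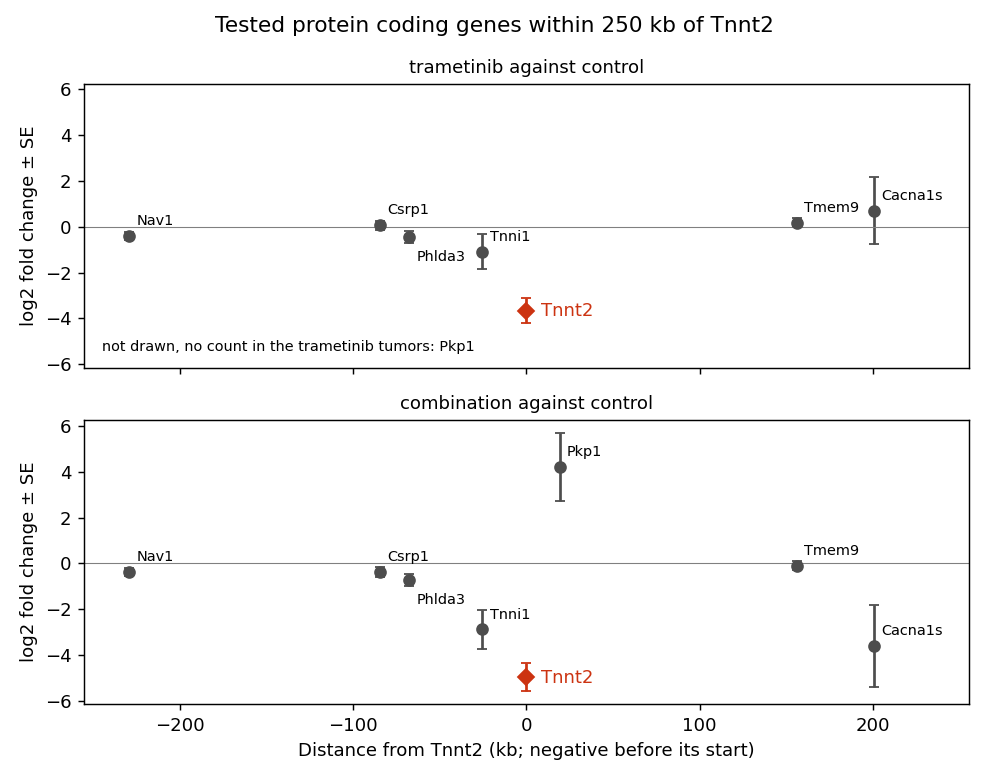
Log2 fold change ± SE against control of Tnnt2 (red diamond) and of the tested protein coding genes within 250 kb of it, by distance in kb, with trametinib (top) and with the combination (bottom). Tnnt2 stands at -3.66 and -4.98, and no neighbour was called by edgeR in either comparison; Pkp1, with 0 counts in trametinib tumors, is left out at the top.

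The genes whose levels over the 12 tumors were most like those of Tnnt2 were found by the root mean square difference between log2 CPM profiles, each centred on its own mean. This distance was 0.75 for Megf10, an engulfment receptor of glia and muscle stem cells, 0.76 for Cbln1, a secreted synaptic protein, and 0.79 for Rab11fip4, a vesicle traffic protein. Next came Gm16548 at 1.06, A330015K06Rik at 1.12, Inpp4b at 1.14, Rps6ka2 at 1.17, Krt18 at 1.19, Selp at 1.19 and Ugt2b34 at 1.21. The median over all genes tested was 2.39 and the 1st percentile was 1.68. Gm16548 overlaps Selp, and reads of the pair may not be told apart. The tumors share their treatment groups, so the distance is a description and carries no p.

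Megf10 was at 4.75 to 5.54 CPM in control, 0.545 to 0.837 CPM in trametinib, 3.78 to 9.95 CPM in cediranib and 0, 0 and 1.30 CPM in combination tumors. As for Tnnt2, cediranib tumor 3 was the highest of all and combination tumor 3 the highest of its group. It was called lower with the combination (-3.50 ± 0.84, FDR 0.0236) and missed the threshold with trametinib (-2.92 ± 0.79, FDR 0.0506).

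Cbln1 was at 9.53 to 13.6 CPM in control, 0.335 to 1.54 CPM in trametinib, 21.9 to 31.7 CPM in cediranib and 0.0908 to 0.835 CPM in combination tumors. It was called lower in both comparisons (-3.88 ± 0.54, FDR 0.00159, and -4.74 ± 0.58, FDR 0.001). Unlike Tnnt2, all its cediranib values lay above all control values. Rab11fip4 was at 4.17 to 10.0, 0.167 to 0.726, 3.88 to 10.99 and 0 to 0.743 CPM in control, trametinib, cediranib and combination tumors, and was called lower in both as well (-3.82 ± 0.69, FDR 0.00698, and -4.29 ± 0.72, FDR 0.00592).

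Of the more abundant genes in this set, Rps6ka2, which encodes an RSK kinase downstream of ERK, was at 105 to 193 CPM in control, 22.1 to 31.0 CPM in trametinib, 96.3 to 178 CPM in cediranib and 11.9 to 21.2 CPM in combination tumors. Inpp4b, a phosphoinositide phosphatase, was at 39.9 to 85.7, 10.8 to 16.8, 49.9 to 76.3 and 5.75 to 5.90 CPM in these groups. Krt18, a simple epithelial keratin, was at 17.3 to 54.0, 6.63 to 9.63, 25.6 to 32.4 and 0.908 to 4.34 CPM. The likeness to Tnnt2 chose these genes, so their calls against control add no support to it. When likeness was measured by Pearson's r, 3 of the 10 genes were again among the top 10, and these were Megf10, Cbln1 and Rab11fip4. With a prior count of 0.5 it was 8 of 10.

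**Figure D5:**
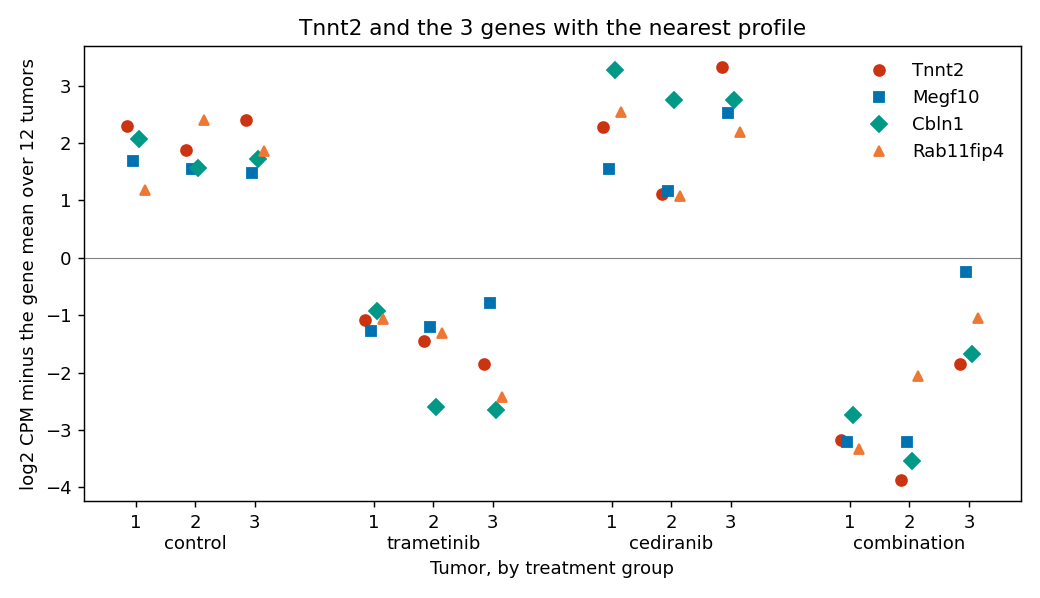
Log2 CPM minus the mean over 12 tumors for Tnnt2 and the 3 genes with the nearest profile (Megf10, Cbln1, Rab11fip4), by tumor. All 4 genes lie above their mean in control and cediranib tumors and below it in trametinib and combination tumors.

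A second search used the deviations from the group means alone. The choice of Tnnt2 also used its independence of single muscle-rich tumors, so these deviations are not free of that choice. Tnnt2 deviated by 1.09 in cediranib tumor 3, -1.13 in cediranib tumor 2, 1.12 in combination tumor 3 and -0.91 in combination tumor 2 on the log2 scale, and by at most 0.39 in either direction in the control and trametinib tumors. The nearest genes were Pdzd4 (distance 0.22), Gm28308 (0.30), Cideb (0.33), Fam135a (0.35) and Osgin2 (0.36), with a median of 0.70 over all genes tested. The root mean square deviation of Tnnt2 itself was 0.65. Fam135a, the most abundant of these, was at 17.0, 11.6 and 41.2 CPM in cediranib tumors and 32.1, 36.0 and 54.1 CPM in combination tumors. All 5 had a positive fitted log2 fold change with trametinib, from 0.09 to 1.40, where that of Tnnt2 was negative. Pdzd4 was at 1.93 to 3.84 CPM in control and 4.18 to 11.7 CPM in combination tumors (1.36 ± 0.51, FDR 0.113). Cideb and Osgin2 rest on few counts, with group totals of 42 to 64 and of 29 to 40, so counting error has a large part in their deviations. No other measure of likeness was run for this second search.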

How the data were processed

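Raw counts per gene, deposited by the authors without normalization, were used for 12 SVR tumors, 3 per treatment, grouped by title. Per the labels and the study's methods, TruSeq RNA Exome libraries were base-called with bcl2fastq 1.8.4, aligned to GRCm38 with STAR 2.7.1a and counted with featureCounts 1.6.0. Strand setting, annotation release and treatment of multiply mapped reads were left unstated (not given in the sources used here). Exome capture favours coding exons, so levels per kb are approximate.

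Genes with enough counts (filterByExpr, minimum count 10, minimum total 15) were fitted together in edgeR 4.0.16 under R 4.3.3, with TMM factors of 0.908 to 1.10 and all 12 libraries in 1 quasi-likelihood fit. SEs were taken as the size of the log2 fold change over the square root of F. The common biological coefficient of variation was 27.2%. Log2 CPM used a prior count of 2. DESeq2 1.42.0, limma 3.58.1 as edgeR's base, other normalizations and filters, covariates and left-out tumors were alternatives. No 2 libraries held identical values. Promoters came from RefSeq (GRCm38.p6), gene models from GENCODE M21.

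Tnnt2, the 14 gene lists and the tests were chosen with earlier results of these data known. The genes named were Tnnt2, every troponin subunit, in each other list up to 4 called genes and up to 4 of the most abundant, every protein coding gene within 250 kb, the 10 genes most like Tnnt2 and the 5 most like it within groups. Tead4, the other cardiac and MEF2 factors, the list members at or near 0 counts and other members named beyond that number were named after their values were seen. Mrtfa and Mrtfb were not matched by name.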

Additional observations from a re-analysis of the deposited data

How the results depend on the processing

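Tnnt2 stayed lower with trametinib and with the combination than in control under every alternative run, at -4.08 to -2.97 and -6.22 to -4.84 on the log2 scale, and at -3.88 to -3.49 and -5.80 to -4.60 with single tumors left out. Cediranib against control went from -0.41 to 0.69 with single tumors left out, and combination against trametinib from -2.14 to -0.93. With the epidermal score as a covariate the values were -6.22 (combination), -0.58 (cediranib) and -3.25 (combination against trametinib). The count of called genes depended more on the setting. From 310, 466, 0 and 87 (trametinib, combination and cediranib against control, combination against trametinib) it went to 687, 1129, 324 and 773 without a filter on low counts. DESeq2 gave 10 for cediranib and 347 for combination against trametinib. For the last comparison only the 2 groups gave 274, and the skeletal muscle score and the epidermal score as covariates gave 0 each. For the combination against control the epidermal score gave 79. Chosen after seeing the data, leaving out control tumor 2 and trametinib tumor 2 gave 181, 261 and 7, and the endothelial score gave 205 with trametinib and 24 with the combination. With single tumors left out the counts were 233 to 289, 237 (without control tumor 3) to 575, with 267, 306 and 261 without control tumor 2, combination tumor 1 and combination tumor 2, 0 to 7 (7 without cediranib tumor 2) and 0 to 21. Library totals alone moved the median of all genes by 0.13 in combination against control, with 62.6% of calls higher against 52.8%, and by 0.12 in combination against trametinib. Deviations of same-numbered tumors correlated at -0.219 to 0.356, above 0.1 in 3 of 18 pairs. The highest value was that of control tumor 2 with trametinib tumor 2, the muscle-rich tumors. These values cannot settle whether tumors of the same number are related. The replicate block gave 57 calls for combination against trametinib, Tnnt2 changes of -3.59 and -5.13, and a call of Tnni1 with the combination (FDR 0.0195).

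Among 204 values of the other troponin subunits under alternatives, 8 were called and 32 had the other sign, and the cause was not tested. All 8 calls were lower with the combination. They were Tnni1 in several settings, and Tnnt3 (-4.43), Tnni2 (-4.07) and Tnnc2 (-3.48) without a filter on low counts. With trametinib Tnnc1 went to -0.022 with library totals, -0.0022 without a filter, -0.075 with the replicate block, -0.39 with the muscle score and -0.85 without the pair of muscle-rich tumors. With the muscle score Tnni2 was -0.56 and Tnnt3 -0.15 with trametinib, and Tnnc2 0.85 with the combination. With the epidermal score Tnnc2 was -0.58 with trametinib and 0.25 with the combination, Tnni3 -0.72 and Tnnc1 -0.15 with the combination. Without the pair of muscle-rich tumors Tnni3 was -0.10 with trametinib, and Tnnc2 1.95, Tnni2 0.058 and Tnnt3 0.066 with the combination. With the endothelial score Tnni3 was -1.93 and -2.24. With single tumors left out the trametinib ranges were -1.80 to 6.07 (Tnnc2), -0.19 to 1.89 (Tnni3), -2.10 to 4.57 (Tnni2), -1.87 to 5.12 (Tnnt3) and -0.89 to 0.35 (Tnnc1), and the combination ranges -4.95 to 1.93 (Tnnc2), -4.79 to 0.041 (Tnni2), -5.66 to 0.039 (Tnnt3) and -0.16 to 0.20 (Tnnc1).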
